A study of Saccharomyces cerevisiae with 4 samples.

Results

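NPR2, NPR3 and IML1 are 3 of the 6692 genes in a table of ribosome footprints from budding yeast (Saccharomyces cerevisiae). They were taken by gene name, as the subunits of 1 complex. NPR2 and NPR3 are genes that the authors' deposited table marks as enriched near mitochondria with cycloheximide but without mitochondrial annotation, so these 2 were chosen by their measured enrichment, which is given here as a description. IML1 carries no such mark. All 3 identifiers (YEL062W, YHL023C and YJR138W) were found under the same symbols in the reference gene table.

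Npr2, Npr3 and Iml1 form SEACIT, the part of the SEA complex that restrains TORC1, the kinase complex that couples growth to amino acid and nitrogen supply. Iml1 is the subunit that acts as a GTPase-activating protein on Gtr1, a small GTPase that signals amino acids to TORC1 at the vacuole, and Npr2 and Npr3 are required for that activity. SEACAT, the other part of the SEA complex, opposes SEACIT. The mammalian counterpart of SEACIT is GATOR1. The complex is best known from the vacuolar membrane.

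The libraries came from a proximity labelling experiment, in which a biotin ligase at one place in the cell marks the ribosomes close to it. The strain was of S288C background and was the same in all groups. BirA, the biotin ligase, was fused through mVenus to Om45, a protein of the mitochondrial outer membrane (om45::OM45-mVenus-BirA::HIS5). Both copies of ribosomal protein Rpl16 carried the Avi tag that BirA biotinylates. The genotype label also lists a BirA driven by the PGK1 promoter at leu2 (leu2::pPGK1-BirA::LEU2), a ligase with no named link to mitochondria, together with ura3Δ0, met15Δ0 and his3Δ1. Biotin at 10 nM was given for 2 min in every group. The 4 groups were the streptavidin pulldown and the input from cells first given cycloheximide, an inhibitor of translation elongation, at 100 µg/ml for 2 min, and the pulldown and the input from cells without the drug.

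Each group held 1 library, so no difference below has a replicate check and no test was made. The listed genes held from 15705022 to 37467060 reads per library. Of the genes in the genotype label, URA3 had no read and MET17 (MET15) had up to 4 per library. HIS3, labelled his3Δ1, had from 901 to 6790. LEU2, labelled as the marker of the PGK1-driven BirA, had up to 2, and these reads do not settle whether that construct was present. The bait OM45 stood at 4.27 (log2 pulldown over input, relative to the median gene) with cycloheximide and at 2.26 without it.

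The 3 genes had low and similar footprint densities in the input without cycloheximide, and they differed most in the pulldown with it. In the pulldown with cycloheximide, NPR2 held 8119 reads, NPR3 7452 and IML1 3064. In the input with cycloheximide, NPR2 held 1395 reads, NPR3 1475 and IML1 2077. The order of the subunits by reads thus differed between the 2 libraries, with IML1 lowest in the pulldown and highest in the input. In the pulldown without the drug, NPR2 held 1077 reads, NPR3 1013 and IML1 889. In the input without the drug, NPR2 held 317 reads, NPR3 685 and IML1 905. IML1 was again lowest in the pulldown and highest in the input.

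Because the proteins differ in length (615 residues for Npr2, 1146 for Npr3 and 1584 for Iml1), levels are compared between genes as the authors' RPKM, reads scaled to gene length and to the reads of the library. Bracketed ranges are exact 95% intervals that cover counting error only. In the pulldown with cycloheximide the RPKM was 111 for NPR2 (108 to 113), 54.5 for NPR3 (53.3 to 55.7) and 16.2 for IML1 (15.6 to 16.8). In the input with cycloheximide it was 29.0 for NPR2 (27.5 to 30.6), 16.5 for NPR3 (15.7 to 17.4) and 16.8 for IML1 (16.1 to 17.5). The 3 genes were well separated in that pulldown, whereas in the input NPR3 and IML1 had overlapping intervals and only NPR2 stood above them.

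In the pulldown without cycloheximide the RPKM was 36.8 for NPR2 (34.6 to 39.0), 18.6 for NPR3 (17.4 to 19.8) and 11.8 for IML1 (11.0 to 12.6). In the input without cycloheximide it was 9.30 for NPR2 (8.31 to 10.4), 10.8 for NPR3 (10.0 to 11.6) and 10.3 for IML1 (9.66 to 11.0). The intervals of the 3 genes overlapped in this input, where their RPKM stood at the 24.3, 27.0 and 25.9 percentile of nuclear genes with a read. As a ratio of RPKM in the same input, NPR2 over IML1 was 0.901 (0.791 to 1.03) and NPR3 over IML1 was 1.05 (0.946 to 1.16). NPR2 over NPR3 was 0.862 (0.752 to 0.986), an interval that lies just under equality. With cycloheximide NPR2 over IML1 was 6.82 (6.54 to 7.11) in the pulldown and 1.73 (1.61 to 1.85) in the input.

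**Figure D1:**
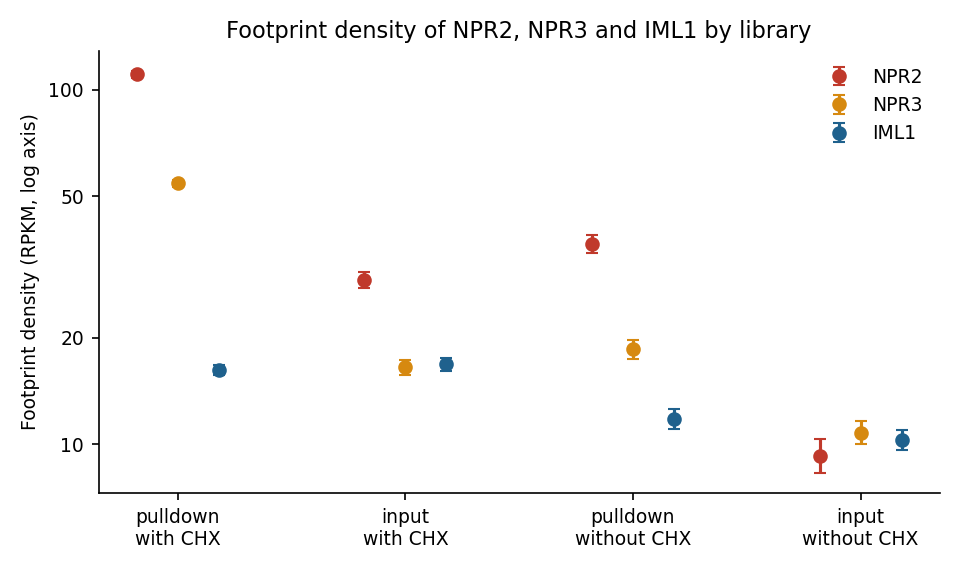
Footprint density (RPKM, log axis) of NPR2, NPR3 and IML1 in each of the 4 libraries; bars are exact 95% intervals for counting error, and each point is 1 library. The 3 genes lie farthest apart in the pulldown with cycloheximide, at 16.2 to 111 RPKM, and together in the input without it, at 9.30 to 10.8 RPKM.

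With cycloheximide, NPR2 and NPR3 were far more abundant among the biotinylated ribosomes than in the input, and IML1 was closer to the bulk of genes. On the scale of library totals, the log2 ratio of pulldown to input was 1.81 for NPR2, 1.60 for NPR3 and -0.17 for IML1, while the median gene stood at -0.73. For that reason the values below are set against the median gene of the same comparison. On that scale NPR2 stood at 2.53 (2.45 to 2.62), a 5.79-fold enrichment, and NPR3 at 2.33 (2.25 to 2.41), a 5.03-fold enrichment. IML1 stood at 0.55 (0.47 to 0.63), or 1.47-fold. Thus 2 of the 3 subunits exceeded the median gene by 2-fold or more, where 12.5% of 5464 genes with at least 100 reads did. None was 2-fold below it, where 0.201% of genes were. The choice of NPR2 and NPR3 by this contrast fixes that count.

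Since NPR2 and NPR3 were chosen for high values in this contrast and IML1 was not, the gaps between them are a description. NPR2 exceeded IML1 by 1.98 (1.87 to 2.09) on the log2 scale and NPR3 exceeded IML1 by 1.78 (1.66 to 1.89). Between NPR2 and NPR3 the gap was 0.20 (0.09 to 0.32). Among the 5464 genes NPR2 ranked 326 and NPR3 371, and IML1 ranked 895. Most genes ahead of NPR2 and NPR3 carry mitochondrial annotation. Among the 4366 measured genes that the authors annotate as mitochondrial in neither of their sets, NPR2 ranked 19, NPR3 33 and IML1 349, behind ASH1, a repressor of mating-type switching, at 3.70, RAD2, a DNA repair nuclease, at 3.58 and APP1, a phosphatidate phosphatase, at 3.50.

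Without cycloheximide the enrichments of the subunits separated differently, and that of NPR3 lay nearer to IML1 than to NPR2. NPR2 stood at 2.01 above the median gene (1.83 to 2.19), a 4.02-fold enrichment. NPR3 stood at 0.81 (0.67 to 0.95), or 1.75-fold, and IML1 at 0.22 (0.08 to 0.35), or 1.16-fold. So 1 of the 3 was past 2-fold above the median gene, where 6.39% of 5148 genes were, and none was past 2-fold below it, where 0.0777% were. The gap between NPR2 and NPR3 was 1.20 (0.97 to 1.43) in this condition, and that between NPR3 and IML1 was 0.59 (0.40 to 0.78). As a ratio of RPKM, NPR2 over NPR3 was 2.03 (1.97 to 2.09) in the pulldown with cycloheximide and 1.98 (1.82 to 2.16) in that without it. In the inputs it was 1.76 (1.64 to 1.90) with the drug and 0.862 (0.752 to 0.986) without it. The change in the gap of this pair thus lay in the inputs, where NPR2 rested on 317 reads without the drug. NPR2 ranked 76 among all measured genes and 8 among the 4076 without mitochondrial annotation, and NPR3 ranked 399 and 114. Some of the unannotated genes ahead of NPR2 rested on few reads. YMR013W-A stood at 4.13 on 96 pulldown and 6 input reads, PAU17 at 2.64 on 97 and 18, and TKL2, a transketolase, at 2.48 on 162 and 34. Others rested on more reads than NPR2, RAD2 at 2.49 on 2463 and 517 and ASH1 at 2.48 on 11884 and 2521. NPR2 rested on 1077 pulldown and 317 input reads.

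**Figure D2:**
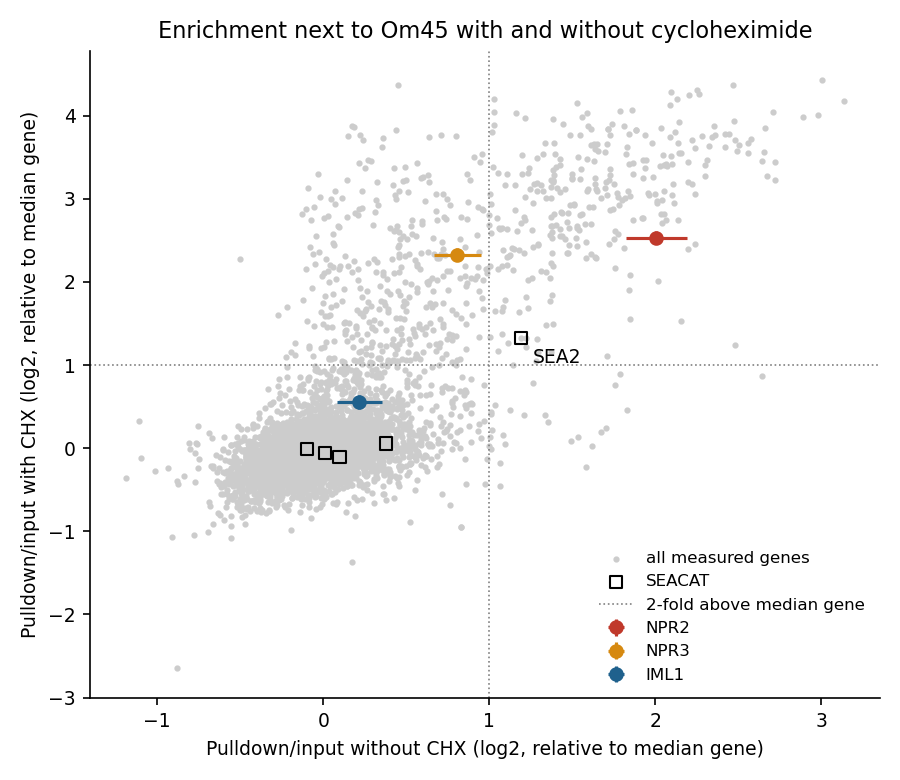
Enrichment (log2 pulldown over input, relative to the median gene) with cycloheximide on the vertical axis and without it on the horizontal axis. Grey points are all genes measured in both conditions, coloured points the 3 subunits with 95% counting intervals, open squares the 5 SEACAT genes, and dotted lines mark 2-fold above the median gene. NPR2 is past both lines, NPR3 is past the line with cycloheximide at 2.33 but not the other at 0.81, and IML1 is past neither.

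The difference between conditions, enrichment with minus without cycloheximide, was largest for NPR3. Relative to the median gene of this comparison, which stood at -0.65, NPR3 had a difference of 1.48 (1.32 to 1.64), NPR2 of 0.49 (0.29 to 0.68) and IML1 of 0.29 (0.14 to 0.45). NPR3 was the 1 subunit past 2-fold, where 9.57% of 5141 genes were above and 0.622% below, and it ranked 29 among 4069 genes without mitochondrial annotation. Enrichment with cycloheximide, by which NPR2 and NPR3 were chosen, enters this difference, so the choice favours high values here. NPR2 had a smaller difference than NPR3 by 0.99 (the interval of NPR2 minus NPR3 was -1.25 to -0.74). NPR2 and IML1 differed by 0.19 (-0.06 to 0.44), an interval that includes equality. The direction for NPR2 and IML1 depended on the scale. On library totals their differences were -0.17 and -0.36, while that of NPR3 was 0.83 and under 2-fold. The drug cannot be told apart from other differences between the cultures, since each was sampled once.

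Among the 36 genes that the authors' deposited table marks as enriched without mitochondrial annotation, NPR2 and NPR3 took different places. With cycloheximide NPR2 ranked 19 and NPR3 32 of the 36, whose median was 2.55 and whose highest value was 3.70. Without cycloheximide NPR2 ranked 3 and NPR3 29, against a median of 1.40. In the difference of enrichments NPR2 ranked 36, the lowest of this set, and NPR3 ranked 17, against a median of 1.32. All 36 were marked by enrichment with cycloheximide, which enters this difference, so high values are favoured throughout the set.

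The input libraries compare all ribosomes of the 2 cultures. NPR2 took a larger share of footprints in the input with cycloheximide, at 1.09 (0.91 to 1.27) above the median gene on the log2 scale, or 2.13-fold. NPR3 stood at 0.06 (-0.07 to 0.19) and IML1 at 0.15 (0.04 to 0.27). NPR2 was the 1 subunit past 2-fold in this direction, where 10.6% of 5380 genes were, and 10.4% were past 2-fold in the other. It exceeded NPR3 by 1.03 (0.81 to 1.25) and IML1 by 0.94 (0.73 to 1.15), and ranked 505 of all measured genes. The gaps between NPR2 and NPR3 in this ratio, in enrichment without cycloheximide and in the difference of enrichments share the same input reads and are not separate results. On library totals the median gene stood at 0.74, NPR2 at 1.83, NPR3 at 0.80 and IML1 at 0.89. As a share of the reads of all 3 subunits, NPR2 held 28.2% in the input with cycloheximide (Wilson 95% interval 27.0% to 29.5%) and 16.6% in the input without it (15.0% to 18.4%).

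Many genes under nitrogen control differed between the 2 inputs. Of 20 genes on a list of nitrogen-regulated transporters, enzymes and a repressor, 11 stood at least 2-fold above the median gene in the input with over the input without cycloheximide. None stood at least 2-fold below it, and the list median was 1.38. Of all genes 10.6% were above and 10.4% below. The 11 included DAL5, an allantoate permease, at 3.89 on 2588 reads with and 84 without the drug. They also included MEP2, an ammonium permease, at 2.15 and DUR3, a urea permease, at 1.70. DAL80, a GATA-family repressor, stood at 2.55 on only 235 reads with and 19 without the drug. GLN1, glutamine synthetase, was lowest at -0.94. Among TORC1 effectors 2 of 16 were past 2-fold above, near the 10.6% of all genes, the transcription factors GLN3 at 1.15 and RTG3 at 1.17. Of 20 autophagy genes 4 were, led by ATG29 at 1.76 on 1510 reads with and 216 without the drug. ATG5, ATG14 and ATG16 held only 47, 80 and 74 reads without the drug, and ATG5 stood at 1.02 (0.56 to 1.52). Of 11 genes of the vacuolar ATPase, none was 2-fold above and 2 were 2-fold below, VMA1 at -1.33 and VMA2 at -1.06, which on library totals stood at -0.59 and -0.32. The part of these differences in the input ratio of NPR2 was not tested.

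**Figure D3:**
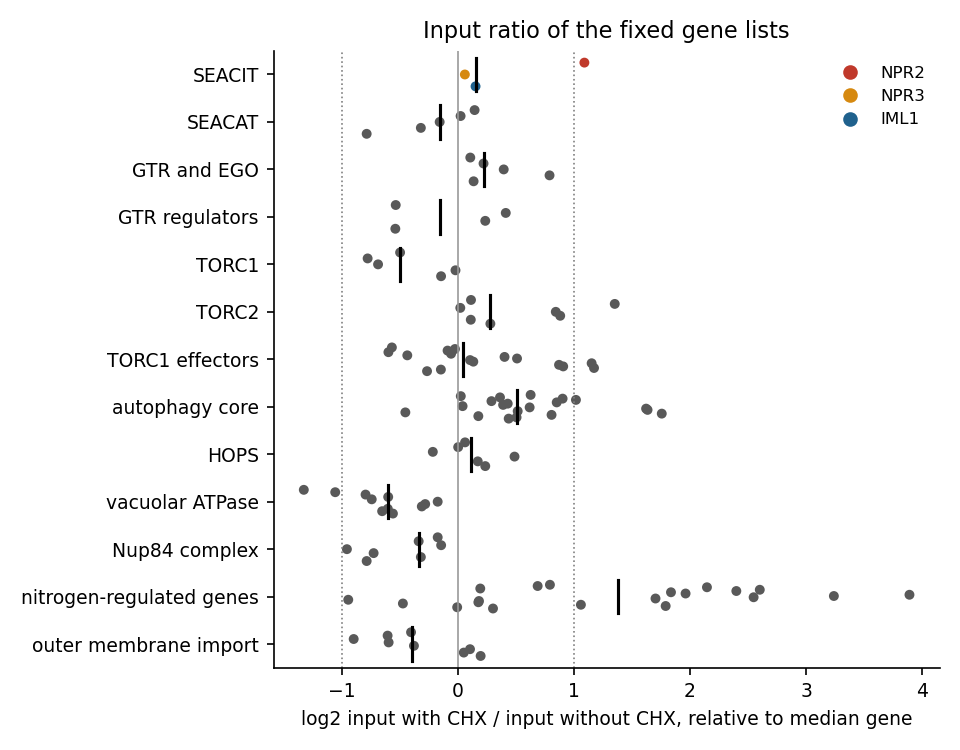
Input ratio (log2 input with over input without cycloheximide, relative to the median gene) of the members of 13 gene lists. Each point is a gene, black bars are list medians, and dotted lines mark 2-fold above and below. NPR2 stands at 1.09 and its partners near 0, and the nitrogen-regulated genes have a list median of 1.38.

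The presequence scores of the subunits did not follow their enrichment. MitoProt, which scores the likelihood of a mitochondrial presequence from 0 upward to 1, gave 0.0913 for Npr2 and 0.0454 for Npr3 but 0.941 for Iml1. The subunit with the high score had the lowest enrichment of the 3, at 0.55 with cycloheximide, and the 2 with low scores had 2.53 and 2.33. NPR2 and NPR3 were chosen by this enrichment and IML1 was not, so the order is a description and no test of the score. None of the 3 was annotated as mitochondrial in either of the authors' sets, had a predicted signal sequence or had a listed ohnolog (a duplicate from the whole-genome duplication). The table gives the GFP localization of Iml1 as vacuolar membrane and that of Npr2 as ambiguous, and none for Npr3.

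Most genes with a high score and no mitochondrial annotation stood near the median gene, and IML1 lay in the upper part of that group. Of 173 measured genes with a score of at least 0.9 and no mitochondrial annotation, 15 (8.67%) were past 2-fold above the median gene with the drug, with a set median of 0.01, and IML1 ranked 22. Of 340 genes with such a score and mitochondrial annotation, 269 (79.1%) were, with a median of 2.74. At the other end, of 2269 genes with a score under 0.1 and no mitochondrial annotation, 85 (3.75%) were past 2-fold. NPR2 ranked 6 and NPR3 12 among the 2269, high ranks that follow from their choice by this enrichment. Of 37 genes with a vacuolar membrane localization, 1 was past 2-fold with cycloheximide, MEH1 at 1.04, and IML1 ranked 5. For scale, 12.5% of all 5464 measured genes and 4.42% of the 4366 without mitochondrial annotation were past 2-fold above in this comparison.

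**Figure D4:**
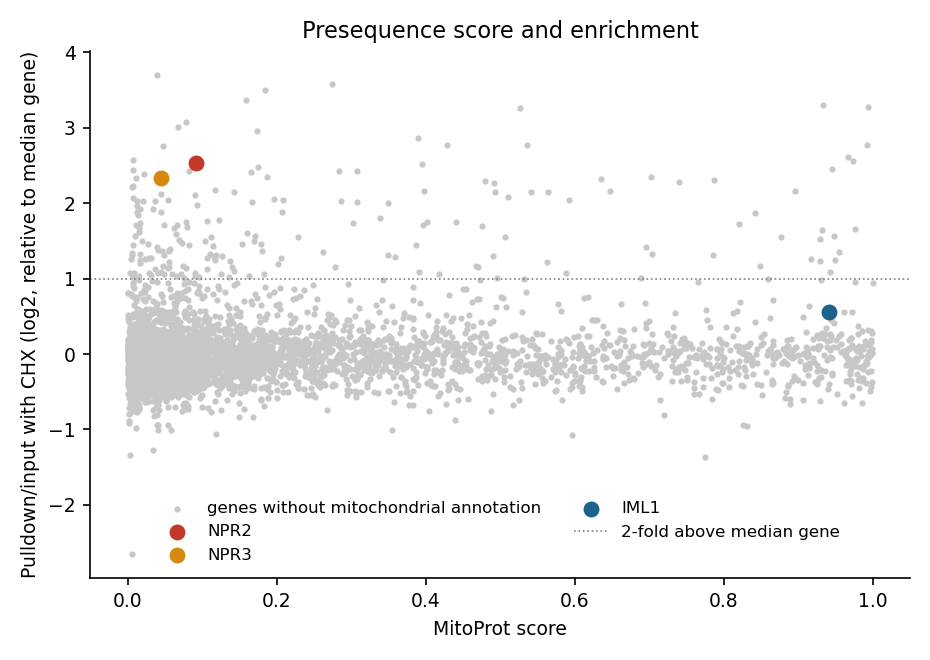
MitoProt score (horizontal axis, no unit) against enrichment with cycloheximide (log2 pulldown over input, relative to the median gene) for the 4366 measured genes without mitochondrial annotation. NPR2 and NPR3, chosen by this enrichment, have scores of 0.0913 and 0.0454 and lie above the dotted 2-fold line, and IML1 has a score of 0.941 and lies below it.

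The authors' calls come from the same reads, and the call with cycloheximide is the one by which NPR2 and NPR3 were chosen. In the authors' deposited table the log2 enrichment with cycloheximide was 1.93 for NPR2, 1.72 for NPR3 and -0.05 for IML1, and NPR2 and NPR3 were called enriched, where 7.58% of 5329 genes were. The lowest called gene in the authors' deposited table was RPM2 at 1.58 and the highest gene not called was TRM5 at 1.57, and NPR3 lay between RPM2 and NPR2. Without cycloheximide the authors' deposited table gave 1.98 for NPR2, 0.78 for NPR3 and 0.19 for IML1. There NPR2 was called, where 4.52% of 4929 genes were, and NPR3 was not. The threshold lay between TOM40 at 1.24, called, and DAN1 at 1.24, not called, in the authors' deposited table. These deposited values are not centred on a median gene.

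Counts for other genes of the pathway were small and near the shares of all genes, mitochondrial ones included. Of 19 genes of SEACAT, of the Gtr and EGO complex, of its regulators and of TORC1, 2 were past 2-fold above the median gene in the pulldown with the drug and 1 in that without it, where 12.5% and 6.39% of all genes were, and none was past 2-fold below in either. The medians of the 19 were 0.00 and -0.01. Most of the 19 lack mitochondrial annotation, and among all measured genes without it the shares past 2-fold above were lower, 4.42% and 1.69%. The 2 past 2-fold with the drug were SEA2 and MEH1, neither of which the authors called enriched. On library totals with cycloheximide they stood at 0.60 and 0.31 and were not past 2-fold, nor were ATG4 at 0.71 and VPS34 at 0.33, 2 autophagy genes. On library totals without the drug SEA2 at 1.16 and VPS34 at 1.25 were past 2-fold, and MEH1 at 0.37 and ATG4 at 0.51 were not. The authors called VPS34 enriched without cycloheximide.

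In SEACAT, SEA2 (listed as RTC1) was the member apart from the rest. It held 2216 reads in the pulldown and 879 in the input with cycloheximide, and 742 in the pulldown and 385 in the input without it. SEA2 stood at 1.33 (1.21 to 1.44) with cycloheximide and 1.19 (1.01 to 1.37) without it, with a difference of 0.10 (-0.12 to 0.31). On library totals it stood at 0.60 with and 1.16 without cycloheximide, a difference of -0.56. The other 4 members lay near the median gene. MTC5, also called SEA3, stood at -0.10 with and 0.10 without cycloheximide, SEA4 (listed as YBL104C) at 0.06 and 0.38, SEH1 at -0.06 and 0.01, and SEC13 at -0.01 and -0.10. Seh1 and Sec13 are also subunits of the Nup84 complex of the nuclear pore. In that complex 1 of 7 genes was past 2-fold with cycloheximide, NUP145 at 1.97, which is also the 1 past 2-fold in the difference of enrichments, at 1.30, or 0.65 on library totals.

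Downstream of the SEA complex, the Gtr GTPases and their vacuolar anchor EGO gave low values. GTR1, the GTPase that Iml1 acts on, stood at 0.10 with cycloheximide and -0.16 without it, and its partner GTR2 at -0.21 and 0.06. MEH1, the EGO subunit that anchors the complex to the vacuolar membrane, was highest of the 5 at 1.04 (0.93 to 1.15) with cycloheximide and 0.40 (0.19 to 0.61) without it. SLM4 stood at 0.00 and 0.21 and the small subunit YCR075W-A (EGO2) at -0.13 and -0.16. None of the 4 regulators of Gtr GTPases or TORC1 was past 2-fold. Among them LST4 was highest with cycloheximide at 0.37 and LST7 without it at 0.48, and PIB2 was lowest without it at -0.39. The value of LST7 (-0.01 to 0.97) rested on 79 pulldown and 67 input reads, and its interval includes the median gene.

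The TORC1 kinase complex itself stood at or below the median gene for most members. TOR1 and TOR2, the alternative kinases, were at -0.70 and -0.74 with cycloheximide and at -0.59 and -0.33 without it. KOG1, the raptor homologue, stood at -0.29 and -0.01, TCO89 at -0.26 and -0.42, and LST8 at 0.20 and 0.11. No member was past 2-fold in any of the 4 comparisons. In TORC2, SLM2 was highest with cycloheximide at 0.98, and AVO2 was past 2-fold in the input ratio at 1.35.

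For the wider pathway, the shares of all genes past 2-fold, 12.5% with the drug and 6.39% without it, are the background. Among genes without mitochondrial annotation these shares were 4.42% and 1.69%. None of 16 TORC1 effectors was past 2-fold in either enrichment, with the kinase NPR1 highest with cycloheximide at 0.72, SFP1, a regulator of ribosomal protein genes, highest without it at 0.40, and TAP42, a phosphatase regulator, lowest without it at -0.66. Of 20 autophagy genes 2 were past 2-fold with cycloheximide, the protease ATG4 at 1.43 and VPS34, the phosphatidylinositol 3-kinase, at 1.05, and VPS34 alone of the 18 measured was past it without the drug at 1.28. ATG12 was at least 2-fold below the median gene without the drug, at -1.02 (-1.60 to -0.47) on 39 pulldown and 94 input reads. That interval spans the 2-fold line. No gene of HOPS (the tethering complex of the vacuole) or of the vacuolar ATPase was past 2-fold in either enrichment. The values of the ATPase genes with cycloheximide ran from VPH1 at -0.50 to VMA13 at 0.06. Of the nitrogen-regulated list, PUT1 at 4.25 and PUT2 at 3.37, both mitochondrial enzymes of proline breakdown, were past 2-fold with cycloheximide and PUT1 at 2.20 without it. Import genes of the outer membrane had 4 of 8 past 2-fold with cycloheximide, led by TOM70, an import receptor, at 3.61, and 3 of 8 without it.

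**Figure D5:**
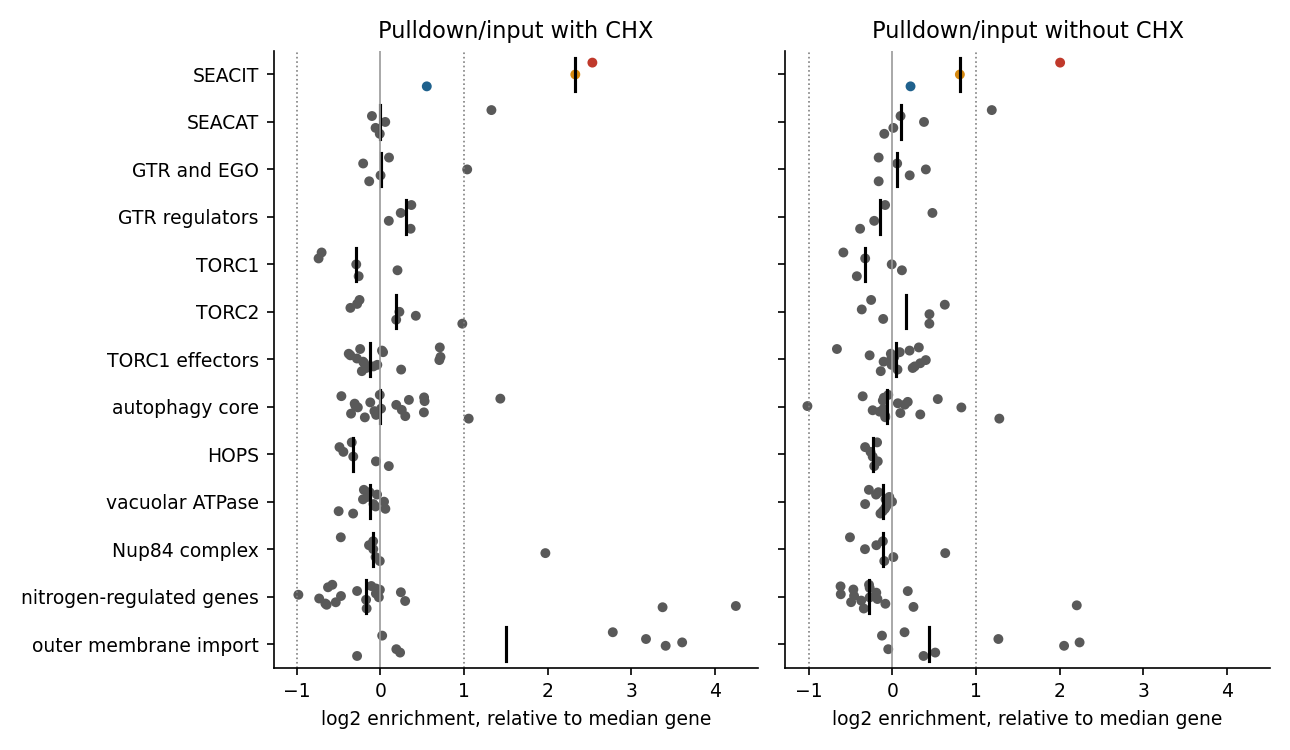
Enrichment (log2 pulldown over input, relative to the median gene) of the members of 13 gene lists, with cycloheximide on the left and without it on the right. Each point is a gene, coloured for NPR2 (red), NPR3 (orange) and IML1 (blue), black bars are list medians, and dotted lines mark 2-fold. NPR2 at 2.53 and NPR3 at 2.33, chosen by this contrast, lie beyond all members of the TORC1 complex, SEACAT and Gtr and EGO lists with cycloheximide.

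The genes with the most similar values differed between the subunits. Likeness was measured as the Euclidean distance over 3 log2 values, the 2 enrichments and the input ratio, among 5139 other genes. The nearest to NPR2 were IBA57, a mitochondrial iron-sulfur cluster protein, at a distance of 0.25 and MDM32, an inner membrane protein, at 0.33. Next came YPL109C at 0.38, GPB2 at 0.39 and HER2, a subunit of the mitochondrial glutamyl-tRNA amidotransferase, at 0.40. All 5 carry mitochondrial annotation. With cycloheximide, the contrast by which it was chosen, NPR2 ranked 326 of 5464 genes but 19 of the 4366 without that annotation. Genes ahead of NPR2 there mostly carry the annotation, so the count of 5 follows in large part from the choice. The nearest to NPR3 were MRPL49, a protein of the mitochondrial ribosome, at 0.17, DIG1, a regulator of mating genes, at 0.17, RTC5 at 0.21, GUT1, glycerol kinase, at 0.24 and the small heat shock protein HSP42 at 0.26, of which 2 carry that annotation. The nearest to IML1 were the vacuolar protease PRB1 at 0.07, PIB1 at 0.10, SWS2 at 0.11, GPB1 at 0.13 and YBR056W at 0.13, of which 2 carry it. No subunit was among the 5 genes nearest another. Of the 5139 others, NPR3 ranked 232 and IML1 827 by nearness to NPR2. By nearness to NPR3, NPR2 ranked 518 and IML1 701. By nearness to IML1, NPR3 ranked 4488 and NPR2 4897. Enrichment with cycloheximide, by which NPR2 and NPR3 were chosen and IML1 was not, enters this distance, so the ranks are a description.

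In genome build sacCer3 (R64) the genes lie on 3 chromosomes. NPR2 spans chromosome V from 34407 to 36254, NPR3 chromosome VIII from 59123 to 62563 and IML1 chromosome X from 684567 to 689321. None overlapped another gene of the reference table, and no other gene in the deposited table held the same counts in all 4 libraries. The neighbours of NPR2, CAN1 at a gap of 940 bp and CIN8 at 280 bp, stood at -0.64 and -0.28 with cycloheximide and at -0.08 and 0.01 without it. RIM4, beside NPR3, stood at -0.13 with and -0.23 without the drug. On its other side NPR3 has a tRNA gene with no value here. MET5 and HOM6, beside IML1, stood at -0.43 and -0.25 with the drug and at -0.63 and -0.13 without it. None of these measured neighbours stood above the median gene with cycloheximide. Across genes without mitochondrial annotation, enrichment had a Spearman correlation with protein length of -0.20 over 4366 genes with cycloheximide and -0.17 over 4076 without it. These are descriptions across genes that share the same libraries.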

How the data were processed

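The deposited counts are unnormalized reads per gene, per the file headers. The same table holds the authors' RPKM, the authors' log2 enrichment (log2 of pulldown over input RPKM) and a MitoProt score per gene, all deposited as they stand here. Lengths in residues are those of the deposited table. Per the submitters' processing notes, CASAVA and genome build sacCer3 were used. In the sources used here, the aligner, any filter on read length and the treatment of reads shared by genes are not given. The table has 5 more columns of sample values, from a BirA fusion other than Om45, which were left out.

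Each library was scaled to its reads in 6664 nuclear genes, with a pseudocount of 0.5 reads. Genes entered a comparison with 100 or more reads summed over both libraries, and each comparison was centred on its median gene. Each comparison has its own median, so the difference of enrichments is not exactly the difference of the 2 centred values. Ratio intervals are exact Clopper-Pearson intervals on the pair of counts, and intervals of RPKM are exact Poisson intervals. Gaps between genes or conditions have 95% intervals by the normal approximation on the log scale. Intervals cover counting error only, since PCR copies cannot be told from separate molecules without molecular identifiers. With 1 library per group no p-value is given.

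The 13 lists held 114 genes, all found, 6 entries of them through synonyms in the reference table. The members and lists were chosen with earlier results of these data known, and the sets by MitoProt score, GFP localization and mitochondrial annotation after the values were seen. A gene counted as having mitochondrial annotation if either of the authors' sets marks it. The genes named are the 3 subunits, OM45, all members of SEACAT, of Gtr and EGO and of TORC1, the highest and lowest member of each other list in each comparison, the 5 genes nearest each subunit and the 5 most enriched genes without mitochondrial annotation in each condition, of which some are printed. DUR3, DAL1, DAL2, DAL4, DAL7, DAL80, MEP2, VMA2, ATG5 and ATG16 lie outside this rule and were chosen after their values were seen. So were the marker genes of the strain, the chromosomal neighbours and the genes at the authors' thresholds, also outside it. Software was scipy 1.17.1, pandas 2.3.3, numpy 2.4.6 and matplotlib 3.10.9 in Python 3.11.15, with edgeR 4.0.16 in R 4.3.3 for TMM factors. The ratios and their intervals were tested on simulated data.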

Additional observations from a re-analysis of the deposited data

How the results depend on the processing

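Each value of NPR2, NPR3 and IML1 was recomputed on library totals, centred on genes without mitochondrial annotation, with TMM factors, with a pseudocount of 1, with minimums of 20 and 500 reads, and from the authors' deposited values. Of 84 such values 75 stayed within the 95% counting interval of the value reported and 9 did not, all 9 on library totals without centring. There, with cycloheximide, NPR2 stood at 1.81, NPR3 at 1.60 and IML1 at -0.17. The differences of enrichments were -0.17, 0.83 and -0.36, so that NPR3 was no longer past 2-fold, and the input ratios were 1.83, 0.80 and 0.89. The shift of the median gene by construction accounts for these moves.

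Counts over all genes moved with the threshold and the scale. Above and below the median gene they were 682 and 11 with cycloheximide, 329 and 4 without it, 492 and 32 for the difference and 568 and 560 for the inputs. On library totals there were 499 above and 880 below with cycloheximide, 234 and 693 for the difference, and 1875 and 115 for the inputs. At 4-fold the counts were 453 and 1, 76 and 0, 143 and 0, and 178 and 58 in the same order. At 1.5-fold those that moved by over 1.5 times were 124 below with cycloheximide, 537 above and 52 below without it, 201 below for the difference, and 1122 and 1176 for the inputs. A minimum of 20 reads gave 31, 26 and 82 genes below in the first 3 comparisons, and one of 500 reads gave 4, 0 and 2. Of 624 list counts 79 moved by over 1.5 times. For the 3 subunits, NPR3 joined NPR2 without cycloheximide at 1.5-fold. At 4-fold NPR3 was no longer past the cut in the difference, at 1.48, nor NPR2 in the input ratio, at 1.09.

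No paired analysis was possible because each group held 1 library, and for the same reason no library was left out. The 317 input reads of NPR2 without cycloheximide limit its values in that condition the most.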
